A study of Mus musculus with 38 samples.

Results

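Glycolysis, glycogen and glucose uptake were followed through 40 genes of the 55487 in the count tables. The 40 members were taken by symbol from a fixed list, which was chosen with earlier results of these data known. They were matched to Ensembl identifiers, with older symbols accepted, so that Pgm1 here is ENSMUSG00000025791 and Pgm2 is ENSMUSG00000029171. By role they are 2 glucose carriers, 3 hexokinases, glucose phosphate isomerase with 3 phosphofructokinases, 4 regulators of fructose bisphosphate, 2 aldolases with triosephosphate isomerase, 7 enzymes of lower glycolysis, 2 lactate dehydrogenases, 7 genes of the pyruvate dehydrogenase gate and 8 glycogen genes. Poly(A) transcripts were read in 38 libraries from mouse cells. They form 18 groups of 2 libraries each, except the normoxic and hypoxic co-cultured macrophages, which had 3 each.

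BV2 is an immortalised microglial line. GL261 is a glioma line, used here as cells stably carrying the pEGFP-N1 plasmid. BMDM are primary macrophages grown from the bone marrow of wild-type mice. In the first experiment, BV2, GL261 and BMDM were kept for 16 h in normoxia (21% oxygen) or hypoxia (under 0.1% oxygen), each alone or in co-culture. First and second experiment are names used here and not in the labels. The BMDM libraries of the first are in a separate count table from those of BV2 and GL261. Between these BMDM and the lines, a difference by cell type cannot be told apart from one by table. Co-cultures held 2 GL261 cells for each BV2 cell or 1 for each BMDM. The labels do not name the partner of the co-cultured GL261 that were sequenced, which was taken to be BV2, since those libraries share a table. In the second experiment, BV2 and BMDM alone received DMSO in normoxia, DMSO in hypoxia, or 10 nM panobinostat, a histone deacetylase inhibitor, in hypoxia. All cells were fixed in glyoxal. Whether the libraries of a group came from separate cultures is not stated in the sources used here. The p-values then measure only the spread between these libraries, which may be technical.

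Glycolysis splits glucose into pyruvate in the cytosol, and lactate dehydrogenase turns pyruvate into lactate so that the pathway can run without oxygen. Hypoxia-inducible factors are known to raise many of its genes when oxygen falls, along with pyruvate dehydrogenase kinases, which keep pyruvate out of mitochondria. Glycogen is the stored form of glucose, built by glycogen synthase and branching enzyme and broken down by phosphorylase, and activated macrophages and microglia are known for a strong reliance on glycolysis.

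Libraries held 9634700 to 27238933 counts, so that 3 counts, the floor used here for a gene with none, stand for 0.110 to 0.311 CPM (counts per 1000000 counts of the library). Such floors cover counting error only. The 40 genes took 1.33% to 2.11% of the counts of any normoxic BV2 or BMDM library and 3.68% to 5.24% of any hypoxic one without panobinostat. In GL261 the shares were 0.654% to 0.879% in normoxia and 1.55% to 1.82% in hypoxia. Mitochondrially encoded transcripts made up 3.85% to 4.25% of counts in normoxic and 1.18% to 2.02% in hypoxic GL261. In the first experiment the 12 macrophage and microglial markers summed to 3528 to 10600 CPM in BV2 and BMDM libraries and to 2.30 to 4.54 CPM in GL261 grown alone. Of the 11 glioma markers, Sox9 was at 0 in all GL261 groups, and Vim led the list in GL261 as well as in the myeloid cells. Genes specific to the co-culture partner had reads in every co-culture. Their level, relative to the partner grown alone, was 0.568% to 2.36% in BV2, 0.218% to 0.916% in GL261 and 1.30% to 6.28% in BMDM.

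Within each of the 3 cell types grown alone, most members of the pathway rose in hypoxia, and 17 of the 40 rose in all 3. The share of all genes that rose in all 3 is not given here. Levels are given in CPM, scaled by edgeR's TMM factors within a cell type, and changes as log2 fold changes with their standard error (SE), so that 1 is a doubling. A gene is called where the p-value of edgeR's quasi-likelihood test, adjusted by Benjamini-Hochberg over all genes tested, is under 0.05. In BV2 alone 37 members passed the filter on low counts, and 27 rose and 4 fell, where 61.9% of all genes tested passed the threshold. In GL261 alone 37 passed the filter, 24 rose and 5 fell, against 44.6% of all genes. In BMDM alone all 40 passed the filter, 25 rose and 1 fell, against 23.9% of all genes. The members tested had a median change of 1.21 (BV2), 0.81 (GL261) and 1.60 (BMDM), beside 0, -0.03 and 0.03 over all genes tested.

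The co-cultured cells gave like counts. In BV2 from co-culture 29 of 37 members rose and 5 fell, where 67.3% of all genes were called. In GL261 from co-culture 26 of 37 rose and 5 fell, where 52.4% were called. In BMDM from co-culture 26 of 40 rose and 4 fell, where 34.8% were called. Over these 6 comparisons 16 members rose in every one: Slc2a1, Hk2, Gpi1, Pfkl, Pfkp, Aldoa, Tpi1, Pgk1, Pgam1, Eno1, Pkm, Ldha, Pdk1, Gys1, Gbe1 and Pgm1. The share of all genes that rose in all 6 is not given here. No member fell in all 6, 3 rose in some and fell in others (Slc2a3, Pgm2 and Ugp2), and Pdha1 was called in none. Without TMM scaling the median of all genes shifted most in BMDM alone, to -0.21, and there 25 members rose and 3 fell. The members that did not pass the filter were Ldhb, Pdk4 and Pygl in BV2, and Hk3, Pfkfb4 and Pdk4 in GL261. Ppp1r3c passed it in BV2 only through the hypoxic co-cultures, where it is high, and had no read in BV2 alone.

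**Figure D1:**
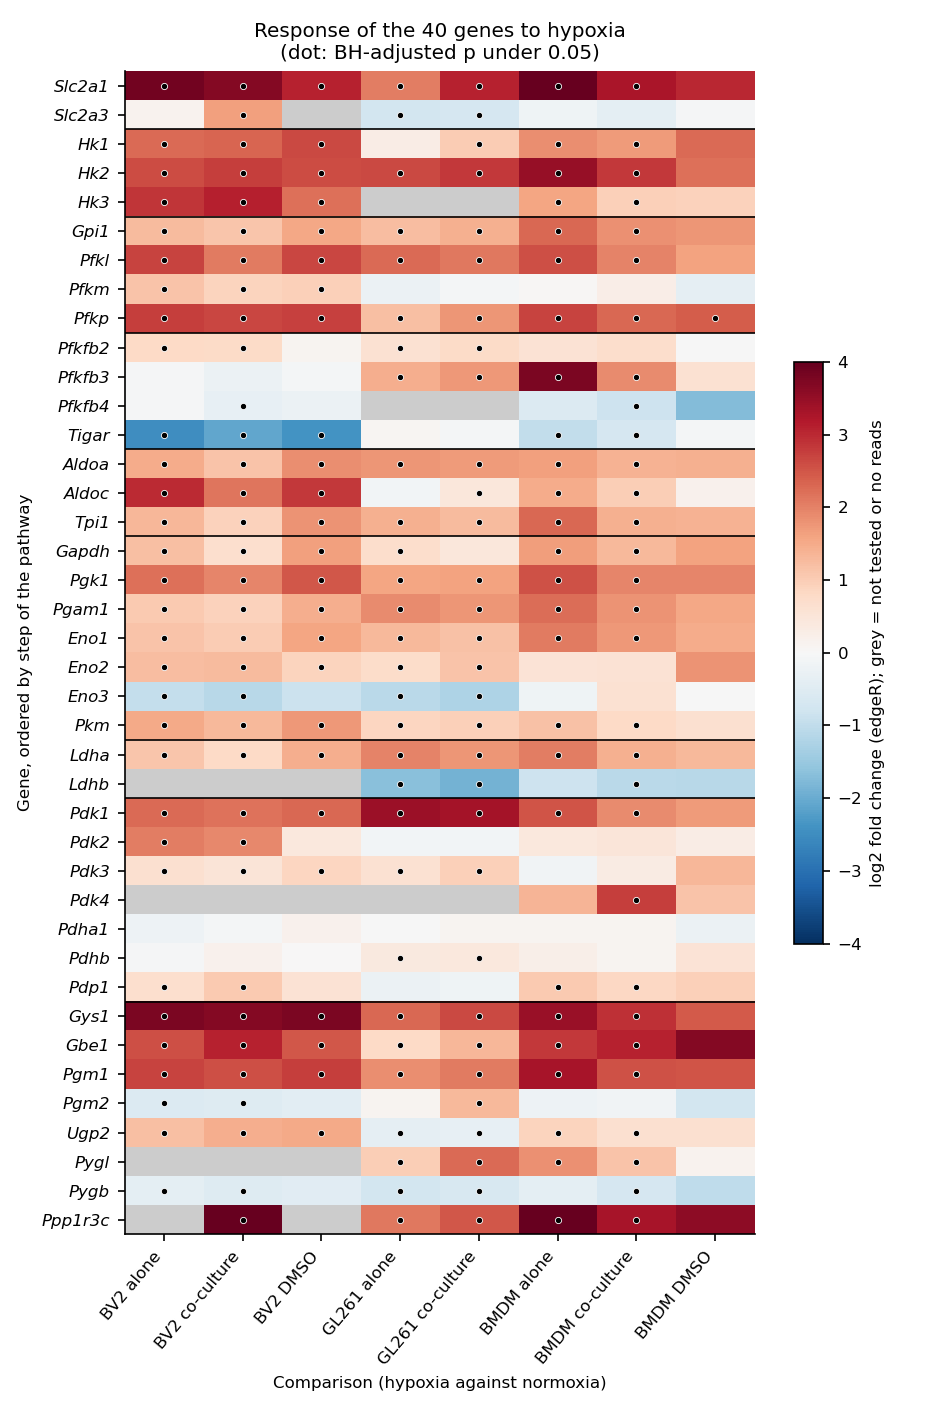
Log2 fold change of each of the 40 genes (rows, ordered by step of the pathway) in the 8 comparisons of hypoxia with normoxia (columns); dots mark an adjusted p under 0.05, grey marks genes not tested or without reads, and the colour scale ends at 4 in either direction. Slc2a1, Gys1 and Pgm1 are red in every column, while Tigar is blue in BV2, Pfkfb3 is red in GL261 and BMDM alone but not in BV2, and the BMDM column with DMSO carries 1 dot.

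Of the transcripts for glucose carriers, Slc2a1, which encodes the widely expressed carrier GLUT1, rose in BV2, GL261 and BMDM alone, and Slc2a3 rose in none of these. In BV2 alone Slc2a1 stood at 85.0 and 87.5 CPM in normoxia and at 1164 and 1315 CPM in hypoxia. In GL261 alone it stood at 79.1 and 75.3 CPM in normoxia and at 346 and 292 CPM in hypoxia. In BMDM alone it stood at 109 and 126 CPM in normoxia and at 1880 and 1840 CPM in hypoxia. No normoxic library overlapped a hypoxic one, and the log2 fold changes were 3.84 ± 0.14 (SE, adjusted p = 7.3e-12), 2.05 ± 0.14 (2.4e-06) and 3.99 ± 0.34 (3.6e-05). In co-culture they were 3.67 ± 0.13 in BV2, 3.07 ± 0.15 in GL261 and 3.25 ± 0.27 in BMDM. Slc2a3, which encodes the carrier GLUT3, was near its floor in BV2 and fell in GL261 alone by 0.74 ± 0.23 on the log2 scale (adjusted p = 0.023), from 15.6 and 20.1 CPM to 13.3 and 7.87 CPM. That call was lost without GL261 alone normoxia replicate 2 (log2 fold change -0.51, adjusted p = 0.18) and without hypoxia replicate 2 (-0.41, 0.14). In BMDM alone Slc2a3 changed by -0.19 ± 0.36 and was not called. In BV2 Slc2a3 lay near the filter on low counts, and the hypoxic co-cultures, where it is highest, helped it pass. Partner RNA in co-cultured BV2 averaged 0.76% of the GL261 level in normoxia and 2.22% in hypoxia. In BV2 from co-culture Slc2a3 was called higher (1.65 ± 0.63, adjusted p = 0.030) at 0.138 and 0.320 CPM in normoxia and 0.947 and 0.583 CPM in hypoxia. This was lost without normoxia replicate 1 (1.24, adjusted p = 0.17) or hypoxia replicate 1 (1.19, 0.24), and the change was 2.42 without normoxia replicate 2.

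Hexokinases trap glucose in the cell by phosphorylating it. Hk2, the inducible isozyme, rose in every one of the 6 comparisons: in GL261 alone from 39.8 and 40.7 CPM to 274 and 231 CPM (2.65 ± 0.14) and in BMDM alone from 42.2 and 43.8 CPM to 467 and 488 CPM (3.47 ± 0.28). Hk1, the isozyme usually called constitutive, rose in BV2 alone from 149 and 158 CPM to 753 and 709 CPM (2.25 ± 0.11). In GL261 alone Hk1 was at 69.5 and 67.2 CPM in normoxia and at 97.7 and 69.6 CPM in hypoxia, a change of 0.29 ± 0.15 that was not called (adjusted p = 0.14). Hk3, the isozyme of myeloid cells, rose in BV2 alone from 23.1 and 16.1 CPM to 153 and 131 CPM (2.86 ± 0.17). In BMDM alone Hk3 rose from 226 and 271 CPM to 658 and 818 CPM (1.57 ± 0.25), and in GL261 it was at most 0.505 CPM in any library.

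Phosphofructokinase commits sugar to glycolysis. Its liver-type gene Pfkl rose in GL261 alone from 124 and 112 CPM to 615 and 512 CPM (2.25 ± 0.14), with like changes in BV2 alone (2.71 ± 0.13) and BMDM alone (2.59 ± 0.19). Pfkp, the platelet type, rose by 2.76 ± 0.12 in BV2 alone, 1.22 ± 0.16 in GL261 alone and 2.71 ± 0.19 in BMDM alone. The muscle-type gene Pfkm rose in BV2 alone, from 67.5 and 71.6 CPM to 160 and 145 CPM (1.13 ± 0.12). It changed by -0.25 ± 0.14 in GL261 alone and 0.05 ± 0.19 in BMDM alone, neither called. Gpi1, the isomerase upstream of this step, rose by 1.25 ± 0.12, 1.22 ± 0.16 and 2.30 ± 0.16 in the same order.

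The regulators of this step split by cell type. Fructose 2,6-bisphosphate activates phosphofructokinase; the Pfkfb genes encode the enzymes that make and remove it, and Tigar encodes a phosphatase that removes it. Tigar fell in BV2 alone from 56.8 and 57.3 CPM to 9.08 and 11.3 CPM, a log2 fold change of -2.48 ± 0.14 (adjusted p = 8.0e-10). In BMDM alone Tigar fell from 18.7 and 22.1 CPM to 9.53 and 10.985 CPM (-0.99 ± 0.20, adjusted p = 0.0063). That call was lost without BMDM alone hypoxia replicate 1 (-0.92, adjusted p = 0.058). In GL261 alone Tigar was at 21.0 and 19.7 CPM in normoxia and at 24.1 and 19.1 CPM in hypoxia (0.09 ± 0.16, adjusted p = 0.67), so that the libraries overlapped.

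Pfkfb3, which encodes the form with the strongest kinase activity, rose in BMDM alone from 12.8 and 16.4 CPM to 195 and 204 CPM (3.77 ± 0.63, adjusted p = 0.0022). In GL261 alone it rose from 27.3 and 26.3 CPM to 80.5 and 66.9 CPM (1.46 ± 0.19). In BV2 alone Pfkfb3 was at 20.3 and 26.2 CPM in normoxia and at 20.3 and 24.6 CPM in hypoxia (-0.05 ± 0.15, adjusted p = 0.80). In BMDM from co-culture, normoxia replicate 2 held 89.1 CPM against 21.1 and 19.2 CPM in the other 2 libraries. There the change was 1.89 ± 0.47 with that library and 2.99 without it. Pfkfb4, the other kinase gene known as a hypoxia target in many cells, rose in none of the hypoxia comparisons. In BMDM alone Pfkfb4 went from 55.3 and 59.6 CPM to 41.4 and 38.1 CPM (-0.53 ± 0.18, adjusted p = 0.056), and in BMDM from co-culture it fell by 0.82 ± 0.15 (adjusted p = 0.0019). In BV2 alone it changed by -0.04 ± 0.13, and in BV2 from co-culture it fell by 0.33 ± 0.13 (adjusted p = 0.034), a call lost without normoxia replicate 2 (-0.23, adjusted p = 0.26) or hypoxia replicate 2 (-0.33, 0.075). Pfkfb2 rose by 0.80 ± 0.21 in BV2 alone and 0.62 ± 0.19 in GL261 alone. Its call was lost without BV2 alone hypoxia replicate 2 (0.50, adjusted p = 0.095), GL261 alone normoxia replicate 1 (0.51, 0.13) or GL261 alone hypoxia replicate 2 (0.57, 0.062).

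Aldolase splits the 6-carbon sugar. Of its 2 genes, Aldoc differed between the lines in its hypoxia response, and Aldoa was not called for a difference. Aldoc, the brain form, rose in BV2 alone from 76.0 and 68.9 CPM to 576 and 560 CPM (2.97 ± 0.12). In BMDM alone Aldoc rose from 52.3 and 52.6 CPM to 158 and 139 CPM (1.498 ± 0.174). In GL261 alone Aldoc was at 116 and 101 CPM in normoxia and at 89.5 and 111 CPM in hypoxia (-0.11 ± 0.15, not called). Aldoa, the major form, rose in all 3 by 1.47 ± 0.14, 1.77 ± 0.16 and 1.64 ± 0.18 in BV2, GL261 and BMDM alone. Tpi1, the isomerase that follows, rose by 1.33 ± 0.13, 1.43 ± 0.19 and 2.31 ± 0.18.

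Of the genes for the lower steps, from glyceraldehyde phosphate to pyruvate, Gapdh, Pgk1, Pgam1, Eno1 and Pkm rose in BV2, GL261 and BMDM alone, Eno2 rose in BV2 and GL261, and Eno3 rose in none of these. Pgk1, the first step that yields ATP, rose by 2.21 ± 0.12 in BV2 alone, 1.57 ± 0.17 in GL261 alone and 2.54 ± 0.21 in BMDM alone. Pgam1 rose by 1.06 ± 0.12, 1.90 ± 0.14 and 2.23 ± 0.20, Eno1 by 1.15 ± 0.14, 1.30 ± 0.15 and 2.08 ± 0.20, Pkm by 1.52 ± 0.13, 0.85 ± 0.20 and 1.16 ± 0.15, and Gapdh by 1.21 ± 0.14, 0.72 ± 0.20 and 1.68 ± 0.26. Eno2, the neuronal enolase, rose in BV2 (1.24 ± 0.15) and GL261 (0.74 ± 0.17) and was not called in BMDM alone (0.55 ± 0.37). Eno3, the muscle enolase, fell in BV2 alone from 43.4 and 45.8 CPM to 21.8 and 23.8 CPM (-0.97 ± 0.14). Eno3 fell in GL261 alone from 178 and 125 CPM to 74.0 and 69.1 CPM (-1.08 ± 0.16) and stayed at 5.46 to 7.31 CPM in all 4 libraries of BMDM alone. Levels of several of these genes are uncertain because other genes share their sequence: 52.8% of the 75-base words in Pgk1 exons, 34.9% in Pgam1, 23.0% in Eno1 and 22.6% in Gapdh occur in other transcripts.

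Pyruvate then goes to lactate or to mitochondria. Ldha, the lactate-forming subunit, rose by 1.11 ± 0.13 in BV2 alone, 1.99 ± 0.20 in GL261 alone and 2.06 ± 0.18 in BMDM alone. Ldhb, the subunit that favours the reverse reaction, had no read in BV2 alone. Ldhb fell in GL261 alone from 45.4 and 43.5 CPM to 12.6 and 15.5 CPM (-1.67 ± 0.17, adjusted p = 3.0e-05). In BMDM alone Ldhb was at 3.89 and 3.72 CPM in normoxia and at 2.04 and 2.21 CPM in hypoxia (-0.84 ± 0.37, not called).

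Of the kinases that shut pyruvate dehydrogenase, Pdk1 rose in all 6 comparisons of the first experiment. In GL261 alone Pdk1 had the largest rise of the members there, from 19.5 and 20.7 CPM to 231 and 197 CPM (3.41 ± 0.16, adjusted p = 3.3e-07). Its changes were 2.26 ± 0.13 in BV2 alone and 2.53 ± 0.18 in BMDM alone. Pdk3 rose in BV2 alone (0.66 ± 0.12) and GL261 alone (0.62 ± 0.14) and was not called in BMDM alone (-0.15 ± 0.36). Pdk2 was at most 2.68 CPM in any BV2 library of the first experiment, and rose there from 0.213 and 0.490 CPM to 1.30 and 1.65 CPM in BV2 alone (2.06 ± 0.44; 2.76 without normoxia replicate 2). In GL261 alone it changed by -0.12 ± 0.17, and in BMDM alone by 0.43 ± 0.32. Pdk4 had no read in any BV2 or GL261 library of the first experiment. In BMDM from co-culture it was called higher at a level of at most 4.41 CPM (2.76 ± 0.70; 1.83 without hypoxia replicate 3). Among the genes of the enzyme itself, Pdha1 changed by -0.19 ± 0.10, -0.01 ± 0.13 and 0.10 ± 0.16 in BV2, GL261 and BMDM alone. Pdhb changed by -0.04 ± 0.11, 0.39 ± 0.13 and 0.22 ± 0.13. Only the GL261 value was called (adjusted p = 0.027), and it was lost without GL261 alone normoxia replicate 2 (0.33, adjusted p = 0.11) or hypoxia replicate 1 (0.34, 0.091). Pdp1, the phosphatase that reopens the gate, rose by 0.66 ± 0.18 in BV2 alone and 1.06 ± 0.29 in BMDM alone and changed by -0.23 ± 0.22 in GL261 alone. Both calls for Pdp1 rested on single libraries: 0.53 (adjusted p = 0.060) without BV2 alone normoxia replicate 1, and 0.71 to 1.05 with adjusted p of 0.13 to 0.23 without BMDM alone normoxia replicate 1 or 2 or hypoxia replicate 2.

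Of the genes that build glycogen, Gys1, Gbe1 and Pgm1 rose in BV2, GL261 and BMDM alone, while Ugp2 rose in BV2 and BMDM and Pgm2 in none of these. Gys1, glycogen synthase, went from 40.04 and 42.5 CPM to 579 and 539 CPM in BV2 alone (3.76 ± 0.13, adjusted p = 4.7e-12). In GL261 alone Gys1 went from 34.9 and 41.8 CPM to 203 and 173 CPM (2.29 ± 0.16), and in BMDM alone from 37.2 and 33.8 CPM to 394 and 389 CPM (3.46 ± 0.37). No normoxic library overlapped a hypoxic one. Gbe1, the branching enzyme, rose from 30.3 and 35.4 CPM to 191 and 198 CPM in BV2 alone (2.57 ± 0.13) and from 8.87 and 8.69 CPM to 56.7 and 67.7 CPM in BMDM alone (2.82 ± 0.33). In GL261 alone Gbe1 rose by 0.80 ± 0.21 (adjusted p = 0.0097), a call lost without normoxia replicate 1 (0.67, adjusted p = 0.082) or hypoxia replicate 1 (0.50, 0.087). Pgm1, which links glucose 6-phosphate to glycogen, rose by 2.70 ± 0.12, 1.86 ± 0.13 and 3.28 ± 0.27 in BV2, GL261 and BMDM alone. Its relative Pgm2 fell in BV2 alone from 33.5 and 35.3 CPM to 24.6 and 22.0 CPM (-0.56 ± 0.12) and changed by 0.12 ± 0.14 in GL261 alone and -0.21 ± 0.14 in BMDM alone. In GL261 from co-culture Pgm2 rose from 30.5 and 33.8 CPM to 75.8 and 80.6 CPM (1.28 ± 0.14, adjusted p = 2.1e-05).

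Ugp2, which makes the UDP-glucose that glycogen synthase uses, moved in opposite directions. It rose in BV2 alone from 67.5 and 70.7 CPM to 161 and 157 CPM (1.20 ± 0.11) and in BMDM alone from 48.1 and 47.7 CPM to 88.2 and 89.3 CPM (0.89 ± 0.20). In GL261 alone Ugp2 fell from 174 and 176 CPM to 147 and 125 CPM (-0.37 ± 0.12, adjusted p = 0.030). Without GL261 alone normoxia replicate 1 or 2 or hypoxia replicate 2 its value there was -0.37, -0.33 and -0.25, with adjusted p of 0.088, 0.11 and 0.17, and leaving out any 1 library of BMDM alone gave 0.81 to 0.87 with adjusted p of 0.060 to 0.098. The phosphorylases, which release glucose from glycogen, also split. Pygb, the brain form, fell in BV2 alone from 128 and 128 CPM to 97.0 and 96.9 CPM (-0.40 ± 0.10) and in GL261 alone from 61.03 and 64.5 CPM to 41.3 and 33.6 CPM (-0.74 ± 0.13). Pygl, the liver form, had no read in BV2 alone, was at 1.38 to 3.55 CPM in GL261 alone, and rose in BMDM alone from 54.5 and 51.7 CPM to 178 and 198 CPM (1.82 ± 0.17). Ppp1r3c, a subunit that directs phosphatase to glycogen, had no read in BV2 alone and rose in GL261 alone from 3.48 and 1.71 CPM to 11.4 and 11.3 CPM (2.12 ± 0.32; 2.73 without normoxia replicate 1). In BMDM alone Ppp1r3c had no read in normoxia and 18 and 9 reads in hypoxia, at least 5.07-fold higher against a floor of 3 counts per library. The call in BMDM alone (adjusted p = 0.034) was lost without any 1 of the 4 libraries, with adjusted p of 0.072 to 0.15.

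**Figure D2:**
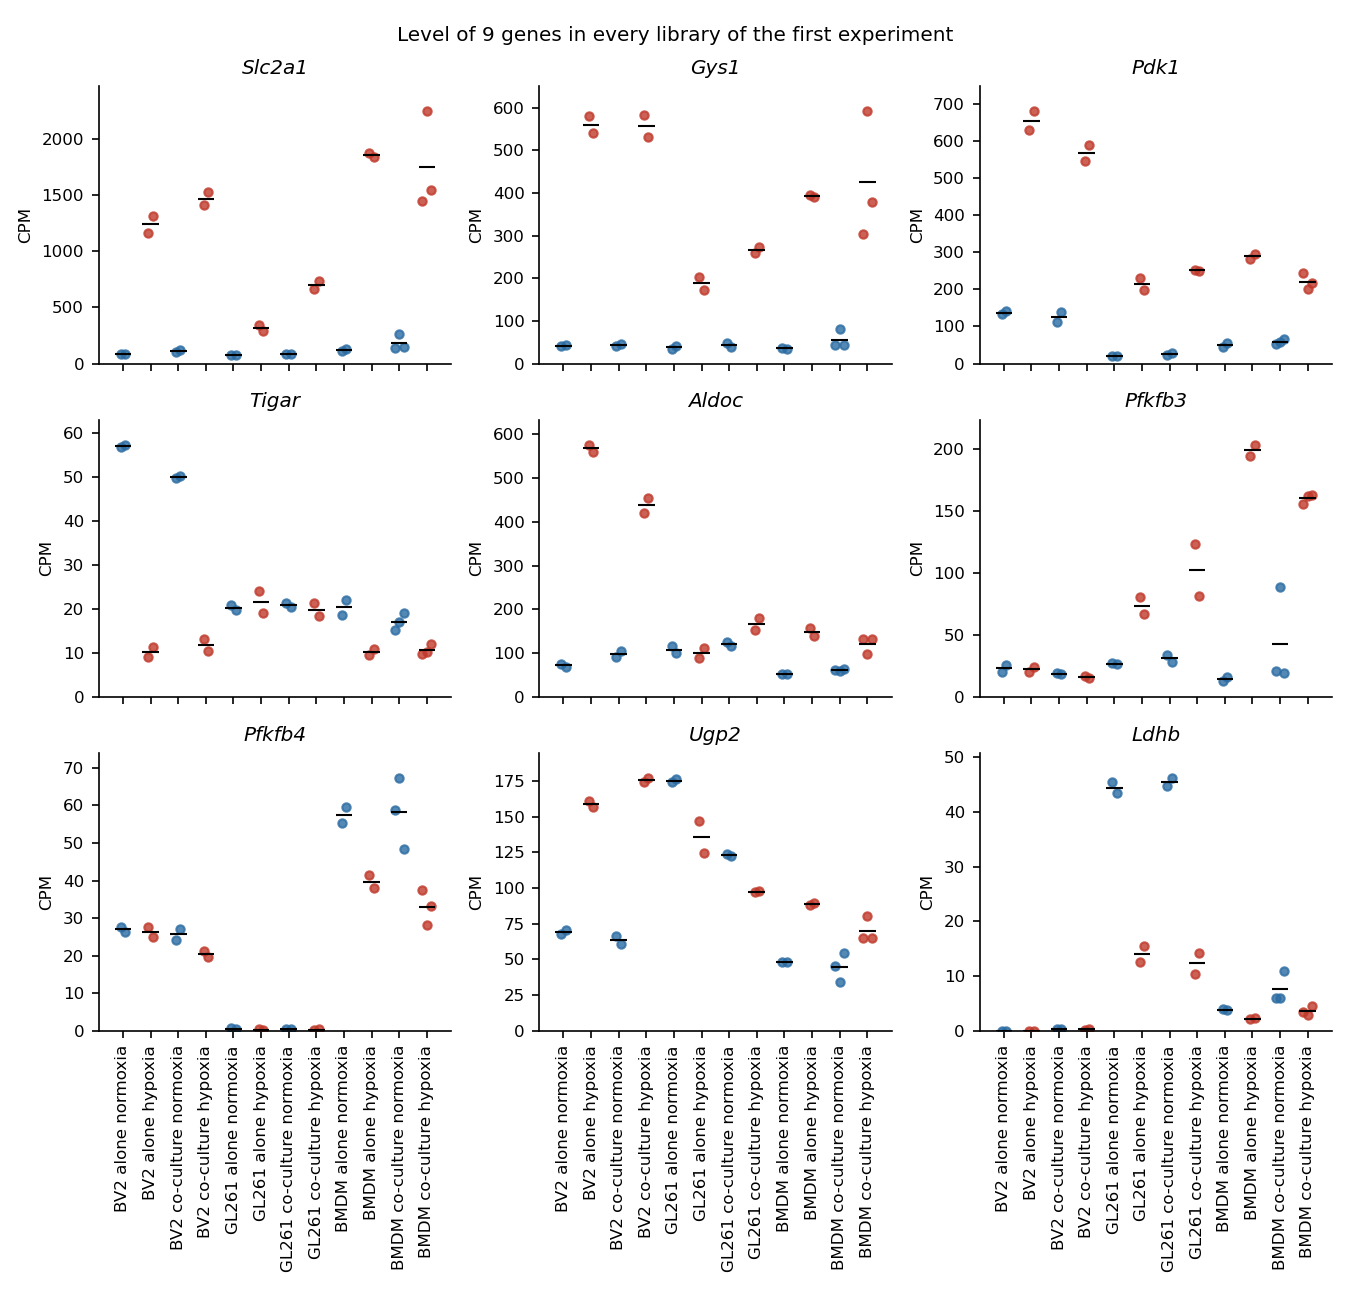
Level in CPM (linear axis from 0) of 9 genes in every library of the first experiment, by group; blue points are normoxic and red points hypoxic libraries, and black lines are group means. Slc2a1, Gys1 and Pdk1 are high in every hypoxic group, Tigar and Aldoc separate in BV2 and BMDM, Ugp2 is higher in hypoxic BV2 and lower in hypoxic GL261, and Ldhb is at or near 0 in BV2.

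Per kilobase of exon, which allows isozymes to be compared, the makeup of several steps shifted. In BMDM alone Hk3 was the leading hexokinase in normoxia, at 67.5 ± 8.56 CPM per kb (SD, n = 2) against 27.1 for Hk1 and 7.21 for Hk2. In hypoxia Hk3 was at 200.5, Hk1 at 98.1 and Hk2 at 80.0 CPM per kb, so that the order was kept while Hk2 went from 7.10% to 21.2% of the 3. In BV2 alone Hk2 led in both conditions, with 50.7% and 54.4%. GL261 alone went from 54.3% Hk1 to 81.3% Hk2. Pfkm was the leading phosphofructokinase in normoxic GL261 alone (58.4% of the 3) and normoxic BV2 alone (42.6%), and it made up 21.5% and 19.6% in hypoxia, when Pfkl led in GL261 (71.8%) and Pfkp (41.3%) and Pfkl (39.1%) were close in BV2. Among the Pfkfb genes Pfkfb4 led in BMDM alone in normoxia (81.3%) and Pfkfb3 in hypoxia (73.8%). Pdk3 was the leading pyruvate dehydrogenase kinase gene in normoxic GL261 alone (55.9%) and Pdk1 in hypoxia (53.1%). These shares describe group means of per-length levels over all annotated exons and were not tested.

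**Figure D3:**
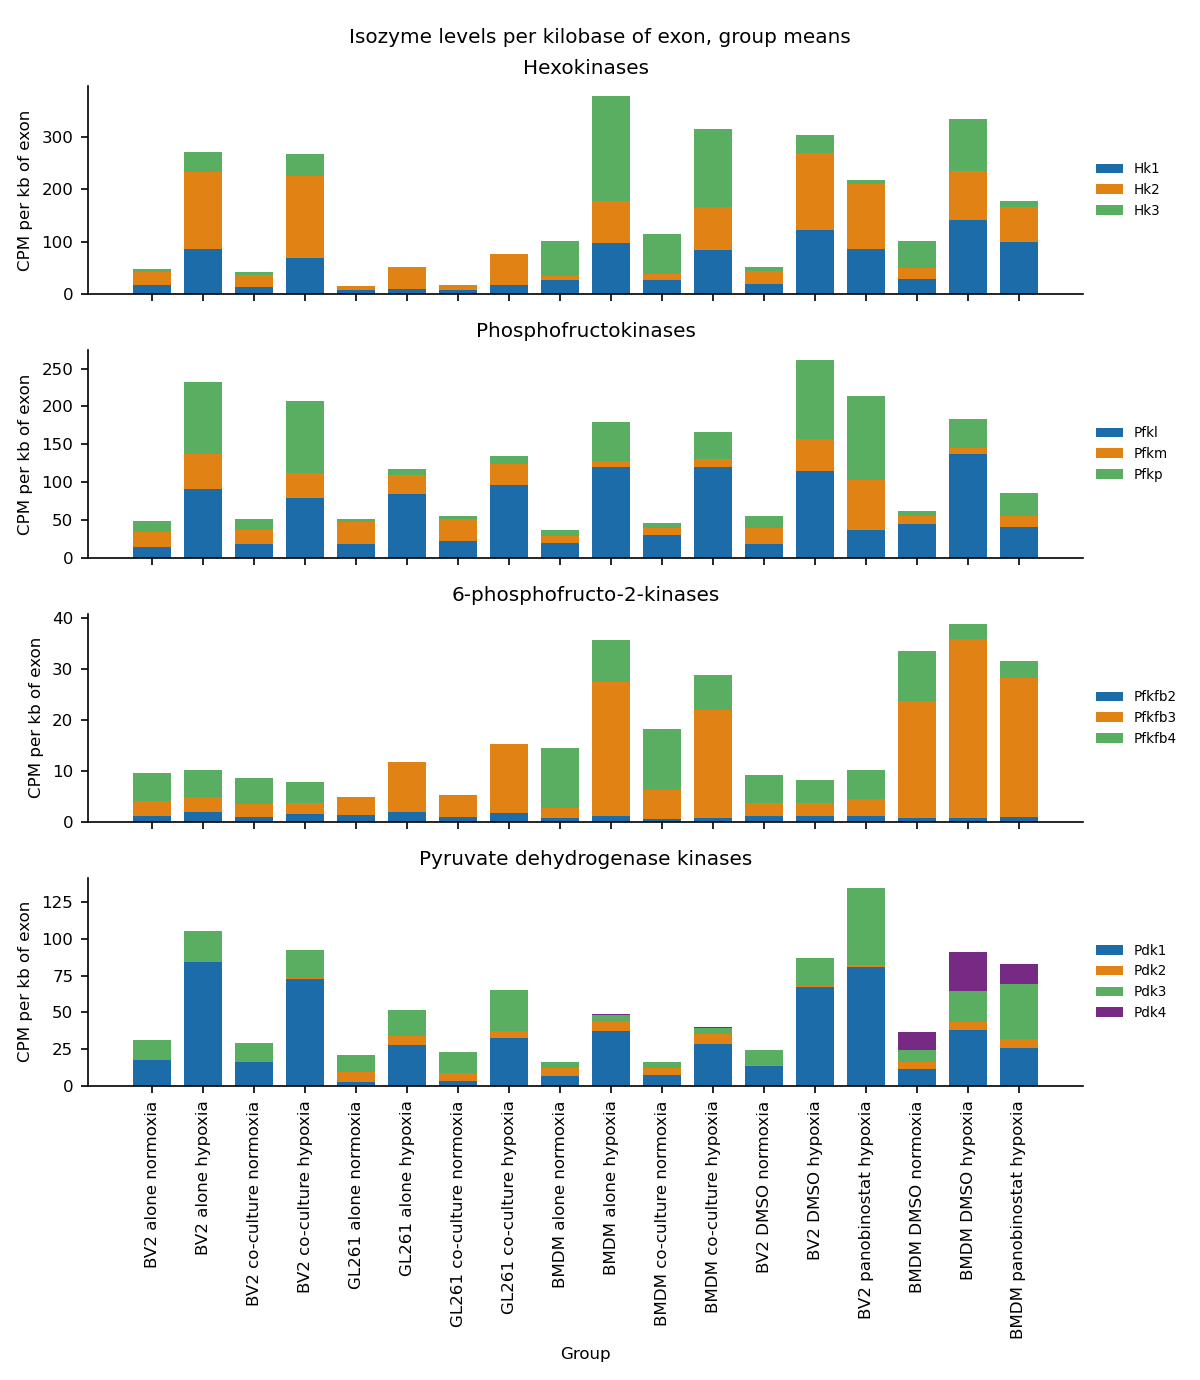
Stacked bars of the mean level per group, in CPM per kb of exon (linear axes from 0), for the hexokinases, phosphofructokinases, 6-phosphofructo-2-kinases and pyruvate dehydrogenase kinases in all 18 groups. Hk3 forms the largest part of the BMDM hexokinase bars in the first experiment, Hk2 that of hypoxic GL261, and Pfkfb3 rather than Pfkfb4 forms the largest part of the 6-phosphofructo-2-kinase bars of hypoxic BMDM.

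Promoter sequences are shown for 3 members that rose in all 6 comparisons (Pgk1, Pdk1 and Gys1) and for 2 that did not rise (Pfkfb4 and Tigar), so that windows with and without the short motif of the hypoxia-inducible factors can be compared; they were chosen after their values were seen. Hypoxia-inducible factors are known to bind DNA with the core ACGTG or GCGTG. The windows run from 250 bases before to 50 after a RefSeq start in build GRCm38.p6: chrX:106186850-106187149 on the plus strand for Pgk1, chr2:71872974-71873273 on the plus strand for Pdk1, chr7:45434589-45434888 on the plus strand for Gys1, chr9:108991652-108991951 on the plus strand for Pfkfb4 and chr6:127109503-127109802 on the minus strand for Tigar. They are written 5′ to 3′ along the gene, with capitals at ACGTG or GCGTG on either strand.
Pgk1: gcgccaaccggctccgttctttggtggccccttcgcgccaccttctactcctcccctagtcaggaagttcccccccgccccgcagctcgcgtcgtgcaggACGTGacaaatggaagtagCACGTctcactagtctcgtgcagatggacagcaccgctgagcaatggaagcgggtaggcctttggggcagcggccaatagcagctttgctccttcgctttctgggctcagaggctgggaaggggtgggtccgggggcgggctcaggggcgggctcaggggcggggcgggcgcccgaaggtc
Pdk1: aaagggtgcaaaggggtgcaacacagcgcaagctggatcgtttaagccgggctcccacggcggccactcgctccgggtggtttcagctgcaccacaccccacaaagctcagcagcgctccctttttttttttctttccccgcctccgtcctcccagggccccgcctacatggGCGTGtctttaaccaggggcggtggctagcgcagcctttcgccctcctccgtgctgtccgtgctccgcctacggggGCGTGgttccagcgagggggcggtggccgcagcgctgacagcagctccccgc
Gys1: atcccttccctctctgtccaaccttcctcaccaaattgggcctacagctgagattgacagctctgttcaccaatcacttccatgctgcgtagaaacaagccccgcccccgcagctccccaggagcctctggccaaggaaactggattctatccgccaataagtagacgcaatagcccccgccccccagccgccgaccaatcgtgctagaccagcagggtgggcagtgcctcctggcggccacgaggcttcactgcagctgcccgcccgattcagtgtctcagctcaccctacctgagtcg
Pfkfb4: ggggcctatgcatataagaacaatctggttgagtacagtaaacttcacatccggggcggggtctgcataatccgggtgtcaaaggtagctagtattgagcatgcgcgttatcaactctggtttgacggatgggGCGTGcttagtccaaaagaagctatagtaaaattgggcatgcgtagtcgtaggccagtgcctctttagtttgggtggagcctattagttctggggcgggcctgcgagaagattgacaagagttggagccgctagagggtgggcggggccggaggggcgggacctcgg
Tigar: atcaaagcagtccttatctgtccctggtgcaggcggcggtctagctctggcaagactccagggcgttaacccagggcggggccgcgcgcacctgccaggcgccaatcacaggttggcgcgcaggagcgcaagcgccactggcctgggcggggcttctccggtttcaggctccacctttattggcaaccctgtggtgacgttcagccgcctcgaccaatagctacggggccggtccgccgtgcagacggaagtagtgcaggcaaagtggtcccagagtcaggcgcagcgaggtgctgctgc

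In these windows Pgk1 holds 2 matches to ACGTG, Pdk1 holds 2 to GCGTG and Pfkfb4 holds 1 to GCGTG, while Gys1 and Tigar hold none. Windows were matched for 38 of the 40 members, with 55 windows in all since some genes have several starts. At least 1 window held either motif for 32 of the 38 (84.2%), against 46.7% of all 27025 genes with a window, and held ACGTG for 23 (60.5%) against 21.8%. The members' windows were also richer in CpG, with a median of 18 per window against 7 over all windows, and the motifs themselves contain CpG. Among the 16 members that rose in all 6 comparisons 12 had a match to either motif (75%), and among the other 22 there were 20 (90.9%). ACGTG also lies within CACGTG, the motif of other factors, and a match or its absence describes only the letters of the window.

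The hypoxia responses of BV2 alone and GL261 alone were compared directly by an interaction term in 1 fit of both lines. Of 39 members tested, 16 had a larger value in BV2 and 6 a smaller one, where 37.4% of all genes tested differed. Aldoc differed most (BV2 minus GL261 3.18 ± 0.19, adjusted p = 2.6e-09). Pdk2 came next (2.28 ± 0.43; 2.91 without BV2 alone normoxia replicate 2), at the low level given above. In the other direction Tigar differed by -2.47 ± 0.22 (adjusted p = 1.6e-07) and Pfkfb3 by -1.41 ± 0.26 (adjusted p = 0.00028). Leaving out each library in turn kept 16 to 22 members called, and 14 of the 22 passed in every one of these fits.

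**Figure D4:**
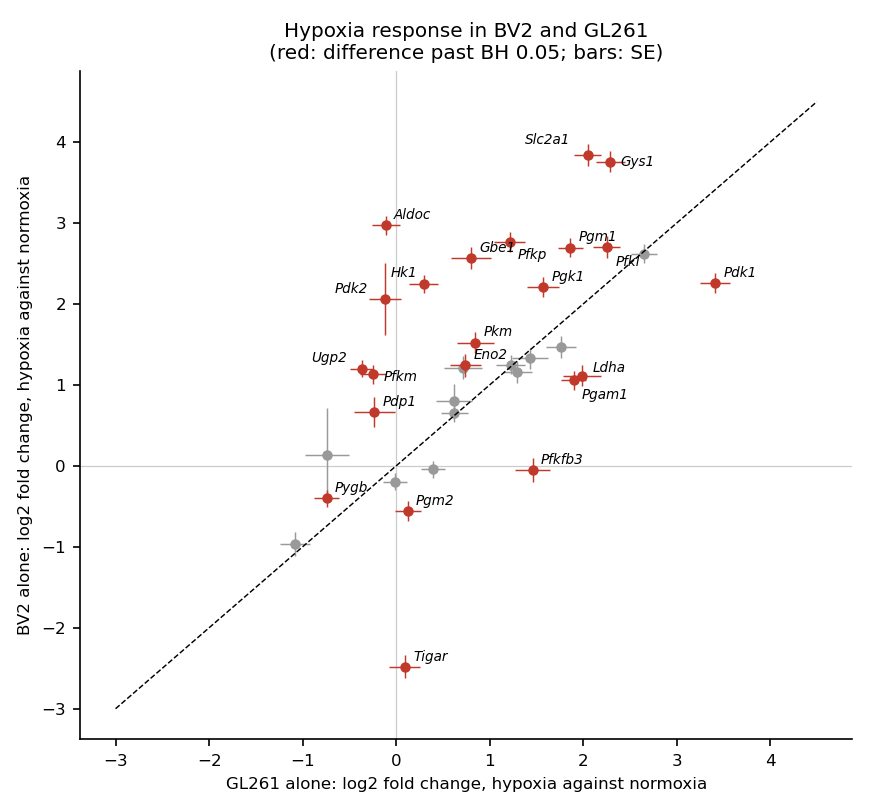
Log2 fold change in hypoxia in BV2 alone (vertical axis) against that in GL261 alone (horizontal axis) for each member with reads and a test in both lines; bars are SE, red points are members whose difference passed the threshold, and the dashed line marks equal change. Aldoc, Hk1 and Pdk2 lie far above the line near 0 for GL261, and Tigar and Pfkfb3 lie below it.

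In normoxia 5 of 37 members rose and 3 fell in co-cultured BV2 relative to BV2 alone, where 14.9% of all genes were called. Gapdh rose from 2810 and 2357 CPM to 3389 and 3967 CPM (0.51 ± 0.14, adjusted p = 0.025). Aldoa (0.46 ± 0.14), Aldoc (0.44 ± 0.12), Pfkl (0.42 ± 0.13) and Slc2a1 (0.42 ± 0.12) rose as well, and Gbe1 fell from 30.3 and 35.4 CPM to 26.5 and 20.4 CPM (-0.49 ± 0.14), Hk1 from 149 and 158 CPM to 113 and 123 CPM (-0.38 ± 0.11), and Pygb from 128 and 128 CPM to 104 and 99.3 CPM (-0.33 ± 0.10). None of these 8 calls passed in every fit with 1 library left out, and the count then ran from 0, without BV2 alone normoxia replicate 2 or co-culture normoxia replicate 2, to 4. Without TMM scaling 5 rose and none fell.

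In hypoxia 1 of 37 members was higher and 4 lower in co-cultured BV2, where 15.7% of all genes were called. The higher one, Ppp1r3c, passed the filter on low counts only through this hypoxic co-culture group, so its call lends no support. Pfkfb3 fell from 20.3 and 24.6 CPM to 17.1 and 15.05 CPM (-0.48 ± 0.16), Pfkm from 160 and 145 CPM to 107 and 118 CPM (-0.44 ± 0.12), Pygb from 97.0 and 96.9 CPM to 74.95 and 68.8 CPM (-0.43 ± 0.11) and Aldoc from 576 and 560 CPM to 420 and 455 CPM (-0.38 ± 0.11). Without BV2 alone hypoxia replicate 1 the value for Pfkm was -0.44 (adjusted p = 0.056) and that for Aldoc -0.43 (0.052), and without replicate 2 that for Pfkfb3 was -0.40 (0.19). Leaving out co-culture hypoxia replicate 1 gave -0.39 for Aldoc (0.054) and leaving out replicate 2 gave -0.45 for Pfkfb3 (0.16). Ppp1r3c had no read in hypoxic BV2 alone and 19 and 13 reads in hypoxic co-cultured BV2, at least 5.46-fold higher. The partner RNA measured there would account for 28.6% of that level with GL261 grown alone in hypoxia as the reference and for 73.0% with hypoxic GL261 from co-culture, a reference added after the data had been seen. For Slc2a3 and Ldhb, the 2 other genes near their floor in BV2 that GL261 expresses, the shares were 31.4% and 140% with GL261 alone and 42.0% and 123% with GL261 from co-culture. For Pfkfb3 they were 10.4% and 14.6%. The change of Aldoc between oxygen levels was smaller in co-culture by 0.82 ± 0.16 (adjusted p = 0.022), the 1 member of 37 called in this interaction, where 2.19% of all genes were called. It was lost without BV2 alone normoxia replicate 2 (-0.74, adjusted p = 0.097) or co-culture normoxia replicate 2 (-0.71, 0.10).

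In GL261 the effect of co-culture was called in hypoxia. There 5 of 37 members were higher and none lower, where 1.39% of all genes were called. Pgm2 rose from 37.0 and 32.5 CPM in GL261 alone to 75.8 and 80.6 CPM (1.17 ± 0.14, adjusted p = 0.0025). Slc2a1 rose from 346 and 292 CPM to 667 and 734 CPM (1.13 ± 0.14, adjusted p = 0.0025). Ppp1r3c rose from 11.4 and 11.3 CPM to 27.9 and 29.9 CPM (1.35 ± 0.28), Aldoc from 89.5 and 111 CPM to 153 and 182 CPM (0.74 ± 0.15) and Hk1 from 97.7 and 69.6 CPM to 139 and 138 CPM (0.72 ± 0.15). The partner RNA in these libraries averaged 0.237% of the BV2 level. Pgm2 and Slc2a1 passed in each fit with 1 library left out. Ppp1r3c was lost in all 4 (1.29 to 1.40, adjusted p of 0.070 to 0.13). Aldoc was lost without GL261 alone hypoxia replicate 1 or either co-culture library (0.59 to 0.86, 0.057 to 0.20), and Hk1 without GL261 alone hypoxia replicate 2 or either co-culture library (0.52 to 0.73, 0.13 to 0.15). Without TMM scaling 3 rose and 1 fell. In normoxia edgeR called 0 of 37 members, where 0.514% of all genes were called, and DESeq2 called 2 members. The unadjusted p was under 0.05 for 7 members and for 1287 of all 15189 genes tested. The difference in hypoxia response between co-cultured GL261 and GL261 alone was called for 0 members by edgeR, where 0% of all genes were called. DESeq2 called 2 members. The unadjusted edgeR p was under 0.05 for 6 members and for 1354 of all 15189 genes tested.

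In BMDM 1 of 40 members was called for co-culture. Eno3 was at 5.46 and 7.25 CPM in hypoxic BMDM alone and at 15.9, 17.3 and 23.9 CPM in hypoxic co-cultured BMDM (1.58 ± 0.31, adjusted p = 0.018), where 7.11% of all genes were called. GL261 expressed Eno3 at a mean of 71.5 plain CPM in hypoxia and the partner RNA in these BMDM would account for 14.4% of the level, or for 10.7% with GL261 from co-culture as the reference. The call was lost without BMDM alone hypoxia replicate 1 (1.39, adjusted p = 0.15) or replicate 2 (1.80, 0.12), and when partner-rich genes were left out Eno3 was not among the genes tested. In normoxia edgeR called 0 of 40, where 1.64% of all genes were called, and DESeq2 called 1 member. The unadjusted p was under 0.05 for 8 members and for 1905 of all 14806 genes tested. The hypoxia response of co-cultured BMDM differed from that of BMDM alone for 0 members, where 0% of all genes were called, and DESeq2 called 0. The unadjusted edgeR p was under 0.05 for 10 members and for 636 of all 14806 genes tested.

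The panobinostat experiment repeated the hypoxia comparison in separate libraries with DMSO. In BV2 24 of 35 members rose and 1 fell, where 37.5% of all genes were called. All 24 were among the 27 that rose in BV2 alone, and the like overlap over all genes is not given here. Gys1 went from 51.2 and 52.1 CPM to 717 and 674 CPM (3.75 ± 0.23), Slc2a1 from 195 and 128 CPM to 1513 and 1217 CPM (3.08 ± 0.29), Aldoc from 78.6 and 83.2 CPM to 537 and 603 CPM (2.82 ± 0.22) and Pgm1 from 168 and 167 CPM to 1191 and 1069 CPM (2.75 ± 0.23). Tigar fell from 34.4 and 45.7 CPM to 5.90 and 9.49 CPM (-2.38 ± 0.31, adjusted p = 0.00062). Hk3 rose from 42.1 and 12.7 CPM to 156 and 95.0 CPM (2.20 ± 0.46). Its change was 3.33 without normoxia replicate 1 and 1.60 without normoxia replicate 2. Pfkfb3 (-0.09 ± 0.24) and Pfkfb4 (-0.23 ± 0.22) were not called, as in BV2 alone. With the replicate block Eno3 (-0.85, adjusted p = 0.00083) and Pygb (-0.45, 0.048) fell as well. Slc2a3, Ldhb, Pdk4, Pygl and Ppp1r3c did not pass the filter in these BV2 libraries.

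In BMDM with DMSO 1 of 40 members was called, and the 2 normoxic libraries lay apart from each other for several members. Pfkp rose from 94.7 and 91.8 CPM to 497 and 512 CPM (2.44 ± 0.25, adjusted p = 0.043), where 0.483% of all genes were called. It was lost without normoxia replicate 1 (2.40, adjusted p = 0.23), normoxia replicate 2 (2.41, 0.14) or hypoxia replicate 1 (2.40, 0.13). Slc2a1 was at 360 and 121 CPM in normoxia and at 2234 and 1666 CPM in hypoxia (3.02 ± 0.59, adjusted p = 0.074, and 0.020 with the replicate number as a block). Pfkfb3 was at 315 and 30.7 CPM in normoxia and at 222 and 309 CPM in hypoxia (0.62 ± 0.92), so that normoxia replicate 1 lay above both hypoxic libraries. Gys1 was at 189 and 70.0 CPM in normoxia and at 723 and 698 CPM in hypoxia (2.45 ± 0.53, adjusted p = 0.082, and 0.022 with the block). Aldoc, which rose in BV2 with DMSO, had means of 59.8 and 68.1 CPM here (0.19 ± 0.54, adjusted p = 0.85). Without normoxia replicate 1 the changes were 3.96 for Slc2a1, 3.05 for Pfkfb3 and 3.29 for Gys1, and no member was called. The unadjusted p was under 0.05 for 29 of 40 members and for 3786 of all 14914 genes tested. With the block 20 members rose and 1 fell, where 14.3% of all genes were called. DESeq2 called 22 members, and its share of all genes is not given.

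These BMDM libraries differed from those of the first experiment in another way. All 5 fibroblast and stroma markers were present, with a sum of 20450 to 24480 CPM in normoxia, 3006 to 14770 CPM in hypoxia with DMSO and 7850 to 12760 CPM with panobinostat, led by Col1a1, against 68.7 to 584 CPM in all BMDM libraries of the first experiment. The 12 macrophage markers were present too, summing to 7042 to 10400 CPM, 3376 to 5239 CPM and 750.4 to 2020 CPM in the same order. Pdk4, at most 4.41 CPM in the first experiment's BMDM, was at 37.9 and 45.6 CPM in normoxia, 73.8 and 112 CPM in hypoxia and 34.5 and 61.4 CPM with panobinostat. The part of the other cells in the BMDM values of this experiment was not tested, and in bulk RNA fewer cells of a type and less RNA per cell cannot be told apart. In this experiment Tigar fell in BV2 and was at 16.2 and 17.3 CPM in normoxia and at 16.4 and 15.6 CPM in hypoxia in BMDM (BMDM minus BV2 2.24 ± 0.41, adjusted p = 0.049). This was the 1 member of 40 called without the replicate block, where 0.664% of all genes were called. With the block, where 8.14% of all genes were called, Tigar was at 2.27 (adjusted p = 0.0063), and Aldoc (-2.86, adjusted p = 0.022), Pfkm (-1.46, 0.030) and Ugp2 (-0.96, 0.042) were called for a lower hypoxia response in BMDM than in BV2. Without the block Aldoc, whose difference was larger in size than that of Tigar, was at -2.70 ± 0.61 (adjusted p = 0.068, and 0.0016 by DESeq2). For Tigar without the block, leaving out a library gave 1.97 to 2.66, and the call was lost without any library but BMDM hypoxia replicate 2 (adjusted p of 0.076 to 0.20).

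Panobinostat in hypoxia left most of the raised genes high in BV2 and shifted a few. Of 35 members 4 rose and 4 fell relative to DMSO in hypoxia, where 14.6% of all genes were called. These values share the hypoxic DMSO libraries with the comparison above. Hk3 fell from 156 and 95.0 CPM to 34.1 and 27.2 CPM (-2.03 ± 0.46, adjusted p = 0.019), within the range of the normoxic DMSO libraries. Pfkl fell from 819 and 715 CPM to 215 and 285 CPM (-1.62 ± 0.27, adjusted p = 0.0064), and Gys1 from 717 and 674 CPM to 372 and 401 CPM (-0.85 ± 0.20, adjusted p = 0.024), both above the normoxic libraries. Pgm1 fell by 0.80 ± 0.22 on the log2 scale (adjusted p = 0.035).

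Among the members that rose, Pdk3 went from 36.2 and 61.045 CPM to 136 and 134 CPM (1.47 ± 0.27, adjusted p = 0.0098). Eno3 went from 15.01 and 25.7 CPM to 44.0 and 61.3 CPM (1.37 ± 0.33, adjusted p = 0.024), and Gpi1 from 1504 and 1395 CPM to 2999 and 3009 CPM (1.05 ± 0.25, adjusted p = 0.024). Pdk2 rose by 1.53 ± 0.44 at a level of at most 3.30 CPM. Among the isozymes of the genes that fell, Hk1 (-0.48 ± 0.23), Hk2 (-0.27 ± 0.22) and Pfkp (0.09 ± 0.25) were not called, nor was Slc2a1 (0.19 ± 0.27) or Pdk1 (0.27 ± 0.26). Pfkm (0.61 ± 0.20) was not called without the replicate block (adjusted p = 0.072) and was called higher with it (0.019) and by DESeq2 (0.044). With the block 6 members rose and 5 fell, where 30.3% of all genes were called, the other gains being Eno2 (0.66, adjusted p = 0.015) and Tpi1 (-0.94, 0.0071). With 1 library left out 1 to 4 members were called, and Pdk3 was the 1 that passed each time: the others kept their direction, with log2 fold changes of -2.21 to -1.88 for Hk3 without a panobinostat library, -1.43 for Pfkl without panobinostat replicate 1, -0.91 to -0.80 for Gys1, -0.89 to -0.73 for Pgm1, 1.02 to 1.59 for Eno3, 0.989 to 1.096 for Gpi1 and 1.35 to 1.72 for Pdk2.

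**Figure D5:**
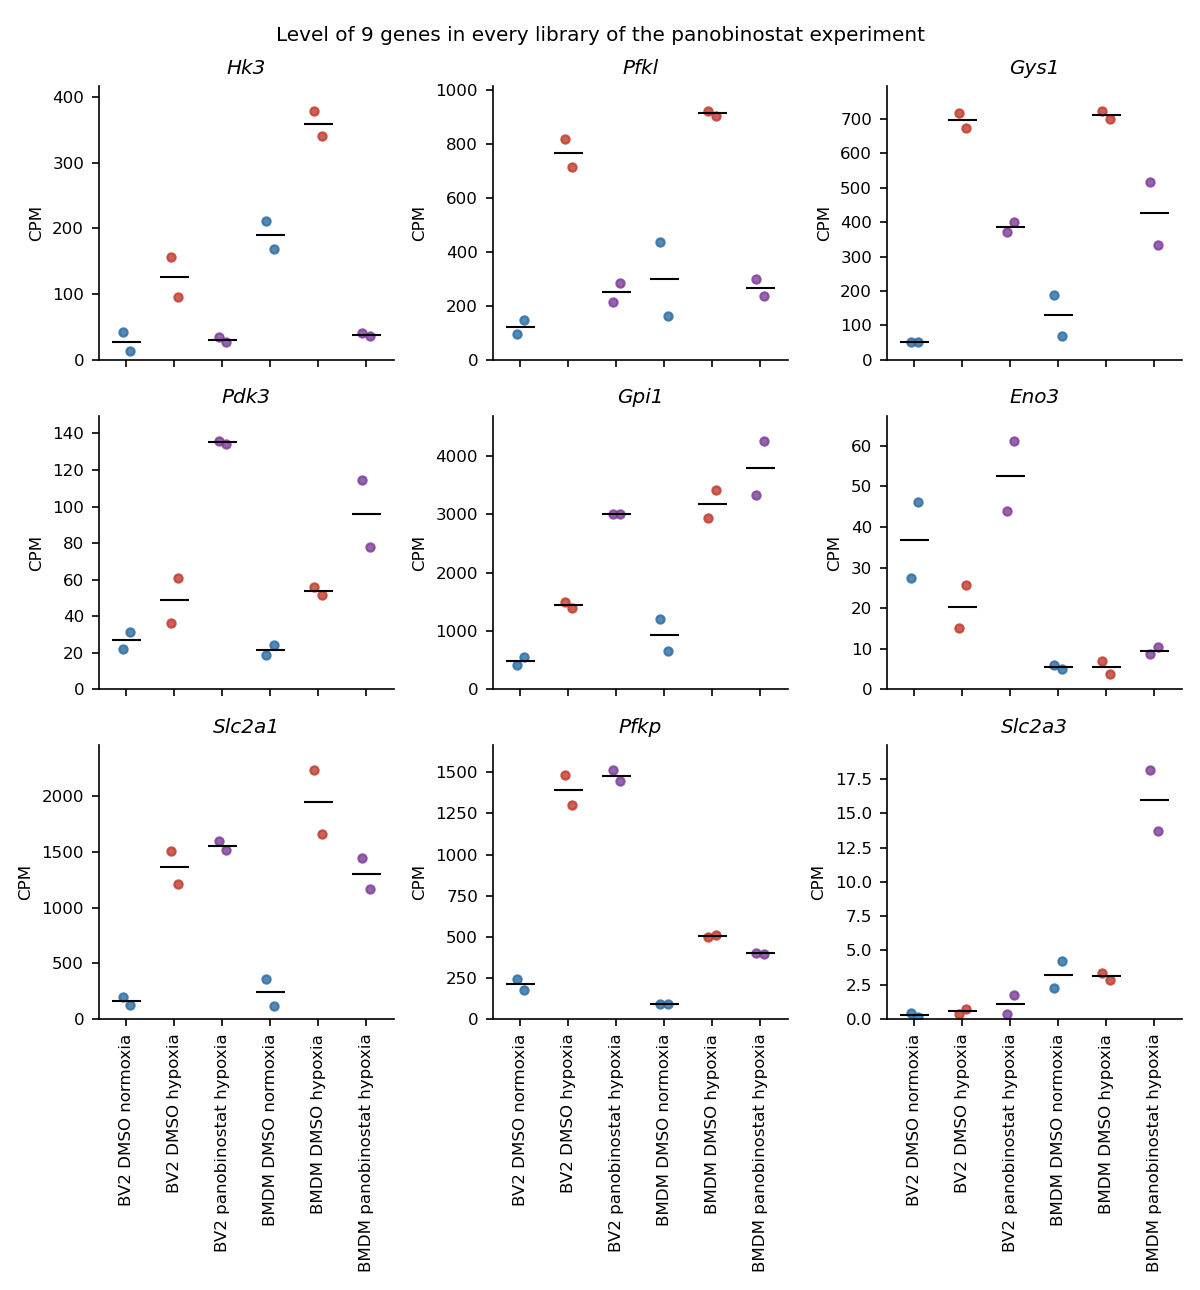
Level in CPM (linear axis from 0) of 9 genes in every library of the panobinostat experiment, scaled within each cell type; blue points are DMSO in normoxia, red DMSO in hypoxia and purple panobinostat in hypoxia, and black lines are group means. Hk3 and Pfkl are low in the purple points of both cell types, and Pdk3 is high in those of BV2. Slc2a1 and Pfkp of BV2 stay high, and the 2 normoxic BMDM points lie apart for Pfkl, Gys1 and Slc2a1. In BMDM no difference between red and purple points was called by edgeR without the replicate block.

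In hypoxic BMDM no member was called for panobinostat by edgeR, where 0% of all genes were called, and DESeq2 called 10 members. The unadjusted edgeR p was under 0.05 for 16 of 40 members and for 3868 of all 14914 genes tested. With the replicate block 5 rose and 3 fell, where 13.7% of all genes were called. Hk3 was at 379 and 341 CPM with DMSO and at 41.1 and 35.5 CPM with panobinostat (-3.23 ± 0.27, adjusted p = 0.051, and 0.021 with the block). Pfkl was at 924 and 904 CPM with DMSO and at 300 and 235 CPM with panobinostat (-1.77 ± 0.50, adjusted p = 0.10, and 0.041 with the block). Slc2a3 was at 3.36 and 2.88 CPM with DMSO and at 18.1 and 13.7 CPM with panobinostat (2.35 ± 0.44, adjusted p = 0.064, and 0.029 with the block). Tigar, Eno2, Ldhb and Pygb were the others that rose with the block and Pdk4 the other that fell. The difference in panobinostat effect between BMDM and BV2 was called for 0 of 40 members, where 0.0251% of all genes were called. DESeq2 called 0 as well. The unadjusted edgeR p was under 0.05 for 2 members and for 1793 of all 15955 genes tested. These BMDM values go with the marker sums given above, whose part was not tested.

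Other genes of sugar metabolism, 64 in all, did not share one direction. Like the members, they were chosen with earlier results of these data known, so they are no independent comparison for the members. In BV2 alone 19 of 45 tested rose and 16 fell in hypoxia, with a median of 0.13, where 30.9% of all genes rose and 31.0% fell. In GL261 alone 14 of 48 rose and 17 fell, with a median of -0.23, where 23.2% of all genes rose and 21.4% fell. In BMDM alone 10 of 50 rose and 2 fell, with a median of -0.02, where 13.3% of all genes rose and 10.6% fell. Over all genes the medians were 0, -0.03 and 0.03. All 6 tested sugar carriers outside the members rose in BV2 alone. Among the monocarboxylate and pyruvate carriers, Bsg, the chaperone of lactate carriers, rose most in BV2 alone (1.85 ± 0.13), where Slc16a1, a carrier that can bring lactate in, fell (-1.54 ± 0.15). Slc16a3, the carrier known for lactate export, rose in GL261 alone from a mean of 24.4 to 131 CPM (2.43 ± 0.17) and in BMDM alone from 161 to 1554 CPM (3.27 ± 0.25). Among the other glycogen genes Ppp1r3b, a phosphatase subunit related to Ppp1r3c, rose in BV2 alone from a mean of 5.77 to 171 CPM (4.89 ± 0.14), and Ppp1r3g rose in GL261 alone (5.07 ± 0.37). In the pentose phosphate pathway 0 of 7 rose and 4 fell in BV2 alone, 1 rose and 5 fell in GL261 alone and 0 rose and 1 fell in BMDM alone, where 61.9%, 44.6% and 23.9% of all genes were called in either direction. Counted in either direction, BV2 and BMDM lie below these shares and GL261 lies above. The falls alone lie above the shares of all genes that fell (31.0%, 21.4% and 10.6%), in BMDM by a single gene. Rpia fell by 1.5 ± 0.15 in BV2 and by 0.73 ± 0.23 in BMDM on the log2 scale, and G6pdx, the first enzyme of that pathway, by 1.36 ± 0.15 in GL261. In the pyruvate dehydrogenase list Pdhx fell in BV2 alone (-1.25 ± 0.13) and Dld rose in GL261 alone (0.60 ± 0.13). Pck2, of the gluconeogenesis list, rose in BV2 alone (1.66 ± 0.15) and fell there with panobinostat in hypoxia (-1.20 ± 0.29).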

How the data were processed

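The 3 deposited tables hold raw read counts per Ensembl gene. Per the submitters' processing notes, the authors used Trimmomatic 0.36, STAR 2.6, Picard 2.17.1, SAMtools, HTSeq 0.9.1 and deepTools with build mm10; the annotation and the strand setting are not given in the sources used here, so reads of overlapping antisense genes may count together (Pgm1 with Itgb3bp, Pdha1 with Map3k15). Poly(A) libraries were read as 151-base pairs. How co-cultured cells were separated is not given either.

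Counts were tested with edgeR 4.0.16 in R 4.3.3 (quasi-likelihood F test, TMM, filter at a minimum count of 10 and total of 15), 1 fit per cell type and table, with a threshold of 0.05 on p-values adjusted over all genes tested. SE is the log2 fold change divided by the root of F. DESeq2 1.42.0, other scalings and filters, a replicate block, fits of only the groups compared, fits without partner-rich genes and fits with each library left out were the alternatives. Scripts were tested on simulated data. Each of the 22 pairs of libraries from 1 group varied beyond counting noise (chi-square per degree of freedom 6.70 to 155.5). Same-numbered libraries deviated together in the panobinostat experiment, where the correlation of their deviations was 0.236 to 0.524 in BV2 and 0.346 to 0.690 in BMDM, so there the numbers from the titles were taken to pair libraries. In the first experiment the correlations ran from -0.202 to 0.458 in BV2, 0.051 to 0.629 in GL261 and -0.039 to 0.435 in BMDM. These ranges overlap those of the panobinostat experiment, and the choice to pair there was made from these same data. The members and all lists were chosen with earlier results of these data known. Members were named with values in every library where they were called, did not overlap, reached 10 CPM and were among the 4 largest rises or 3 largest falls, with their isozymes and regulators. Promoters are from RefSeq. Tables were scaled separately, so levels are not tested across them.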

Additional observations from a re-analysis of the deposited data

Results flagged for a closer look

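The hypoxia response differed between BV2 alone and GL261 alone for 22 of 39 members tested (interaction term in edgeR, adjusted over all genes). Of all genes tested 37.4% differed. The median difference was 0.15 over all genes, beside 0.55 over the members tested. As log2 differences (BV2 minus GL261), larger responses in BV2 were seen for Aldoc (3.18), Pdk2 (2.28), Hk1 (2.06), Slc2a1 (1.90), Gbe1 (1.86), Ugp2 (1.67), Pfkp (1.65), Gys1 (1.57), Pfkm (1.48), Pdp1 (1.00), Pgm1 (0.93), Pkm (0.78), Pgk1 (0.74), Eno2 (0.60), Pfkl (0.55) and Pygb (0.44). Smaller values in BV2 were seen for Tigar (-2.47), Pfkfb3 (-1.41), Pdk1 (-1.05), Ldha (-0.78), Pgam1 (-0.74) and Pgm2 (-0.59). Pygb fell in both lines and fell less in BV2. Pfkl, Pgk1, Eno2, Pkm, Pgm2, Pygb, Pdp1 and Ldha lost the call when single libraries were left out.

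The hypoxia response of Aldoc in BV2 was smaller in co-culture than alone (-0.82), and that of Tigar in the panobinostat experiment was higher in BMDM than in BV2 (2.24). Each was the 1 member called in its interaction without the replicate block and lost the call when single libraries were left out. With the block, Aldoc (-2.86), Pfkm (-1.46) and Ugp2 (-0.96) were also called, for a lower response in BMDM than in BV2.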

How the results depend on the processing

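No called value of any member changed direction under the alternatives run, and the counts for hypoxia in BV2, GL261 and BMDM of the first experiment, for hypoxia in BV2 with DMSO and for BV2 alone against GL261 alone stayed within 1.5 times. DESeq2 called 22 members for BMDM with DMSO (1 by edgeR), 10 for panobinostat in BMDM (0), 10 and 2 for co-culture in hypoxic and normoxic GL261 (5 and 0), 6 and 1 in hypoxic and normoxic BMDM (1 and 0), 3 and 2 for the co-culture interactions in BV2 and GL261 (1 and 0) and 5 for BMDM against BV2 with DMSO (1). Without the filter on low counts the counts were 23 for BMDM with DMSO, 8 for panobinostat in BMDM, 1 for co-culture in normoxic GL261, 4 in normoxic and 4 in hypoxic BMDM, 4, 2 and 1 for the interactions in BV2, GL261 and BMDM, and 6 for BMDM against BV2. With a mean of at least 5 CPM they were 1 for panobinostat in BMDM, 5 and 3 for normoxic and hypoxic BV2 in co-culture, 3 for hypoxic GL261 and 2 for the BV2 interaction. DESeq2 size factors gave 1 for panobinostat in BMDM. Library totals without TMM gave 0 for BMDM with DMSO, 5 for co-cultured normoxic BV2, 2 for the BV2 interaction and 0 for BMDM against BV2. Fits of only the groups compared gave 0 for BMDM with DMSO, 3 and 2 for hypoxic BV2 and GL261 in co-culture and 0 for BMDM against BV2. Without partner-rich genes, hypoxic BV2, GL261 and BMDM in co-culture gave 3, 3 and 0. The shares of all genes called under these settings are not given, and those of the main fits do not stand in for them. These counts therefore do not show whether the members differ from other genes.

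With the replicate number as a block, 21 members were called for BMDM with DMSO, 8 for panobinostat in BMDM, 11 for panobinostat in BV2, 27 for BV2 with DMSO and 4 for BMDM against BV2. In both experiments the labels give only a replicate number, and in the first it was not taken to pair libraries. In the first the block gave 9 and 1 for hypoxic and normoxic GL261 in co-culture and 3 for hypoxic BMDM in co-culture. For hypoxia in BV2, GL261 and BMDM, each alone and then in co-culture, it gave 31, 34, 29, 32, 27 and 32.

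With 1 library left out the counts ran from 0 to 4 for BMDM with DMSO, 1 to 4 for panobinostat in BV2, 0 to 4 and 3 to 5 for normoxic and hypoxic BV2 in co-culture, 2 to 7 for hypoxic GL261, 0 to 5 for hypoxic BMDM, 0 to 3 for the BV2 interaction and 0 to 4 for BMDM against BV2. A group left with 1 library is assumed to vary like the others. The cause of these moves was not tested. With 2 or 3 libraries a group, small differences cannot be told from the spread, and genes near 3 counts per library are limited by depth.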
